A study of Homo sapiens with 14 samples.

Results

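The 40 genes described here encode the machinery that licenses and fires DNA replication origins and copies DNA at the fork. They were chosen by gene symbol for their textbook role, with earlier results of these data known. All 40 stand in both gene tables, which list 26171 genes for K562 and 19196 for SIGM5. Polyadenylated RNA had been sequenced in 14 libraries that form 7 groups of 2. The erythroleukaemia line K562 was used as 2 isogenic derivatives, K01 and the TET2-/- K18. K01 is TET2+/+ by the design text, in which that is the other K562 genotype. K01 received 12.5 µM TETi76 with 100 µM ascorbate, 12.5 µM TETi76 alone, 100 µM ascorbate alone, or DMSO, the solvent, while K18 received DMSO alone. The acute myeloid leukaemia line SIGM5 received 12.5 µM TETi76 or DMSO. Treatment lasted 24 h in every group. TETi76 is an inhibitor of the TET dioxygenases, which oxidise 5-methylcytosine in DNA, and ascorbate is a cofactor that raises their activity. Each K562 genotype is 1 derivative, so genotype and derivative cannot be told apart.

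Replication starts at origins that were licensed in G1, when the origin recognition complex, CDC6 and CDT1 load the MCM2-7 helicase onto DNA. In S phase CDC45 and GINS join MCM2-7 to form the active helicase, DNA polymerases copy both strands from primers laid by primase, and the PCNA clamp, the flap nuclease and the ligase finish the lagging strand. Ribonucleotide reductase, thymidylate synthase and thymidine kinase supply the nucleotides. Many of these genes are transcribed in G1 and S phase under the control of E2F factors, and their transcripts are widely used as marks of proliferating cells.

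SIGM5 values are raw counts, with 18893636 to 23639198 counts per library, printed here as CPM (counts per 1e6 counts) after TMM scaling. K562 values were deposited with no named unit and were read, from their behaviour, as fragments per kilobase and 1e6 reads (FPKM). The value of 1 read puts the depth at about 4.64e6 to 8.83e6 reads per library. All 40 genes passed the filter on low values in both lines. A gene is called where the adjusted p is under 0.05. The p came from limma on log2(FPKM + 1) in K562 and from edgeR's quasi-likelihood test in SIGM5, with Benjamini-Hochberg adjustment over every gene tested. On the log2(FPKM + 1) scale the change of a low gene is understated. Mean levels are given ± SD (n = 2) and log2 changes ± SE. The labels number the replicates without saying that they were separate cultures, so the spread behind each p-value is one between libraries and may be technical only. In bulk RNA, fewer cells in S phase and less RNA per cell cannot be told apart. TET2 was read at 3.31 and 2.95 FPKM in K18, against 1.99 and 2.40 FPKM in K01 with DMSO, and a value over the whole gene cannot check a short lesion. Erythroid markers summed to 4907 to 10863 FPKM in the K562 libraries, and myeloid markers summed to 19372 to 22397 CPM in the SIGM5 libraries.

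Under TETi76, transcripts from every step of the replication pathway were lower in K01, and 0 of the 40 genes were called higher. The MCM7 helicase subunit, the helicase factor CDC45, the polymerase delta subunit POLD1 and thymidylate synthase TYMS fell to under 50% of their DMSO level on the log2(FPKM + 1) scale, while the single-strand binding proteins RPA1 and RPA2 and the licensing inhibitor GMNN were not called. limma called 23 of the 40 genes lower under TETi76 than under DMSO. Over all 12526 genes tested in this comparison 23.3% were called, with 13.7% called lower and 9.60% called higher. The median log2 change was -0.42 over the 40 genes and -0.01 over all genes. The balance over all genes depended on the scaling, with 1716 lower and 1203 higher as scaled here and 1384 lower and 1428 higher after quantile normalization, where the median of the 40 was -0.33. With ascorbate in both arms 28 of the 40 were lower, against 30.7% of all genes called, 17.8% lower and 12.8% higher, and the median was -0.48 over the 40 and -0.01 over all genes. After quantile normalization 1847 of all genes were lower and 1788 higher in that comparison, and the median of the 40 was -0.39. Among the 40, limma called 0 higher in either comparison, and 0 of those above 0 reached an unadjusted p under 0.05.

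**Figure D1:**
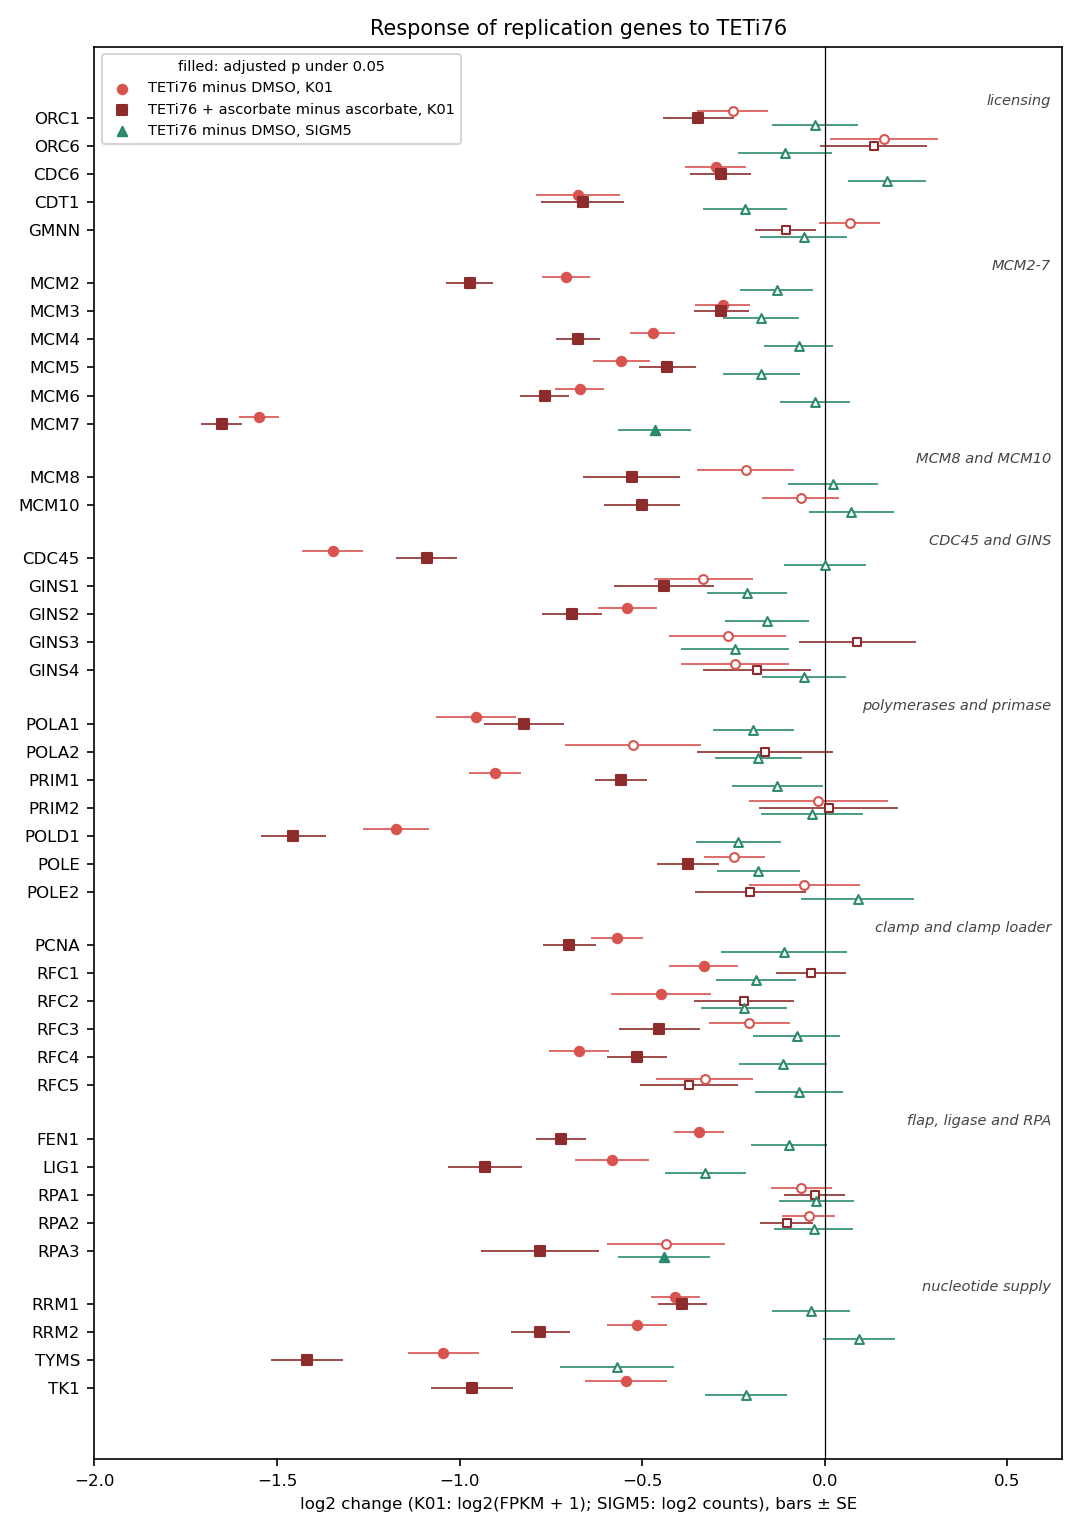
Log2 change of each of the 40 genes with its standard error, grouped by role, for TETi76 minus DMSO in K01 (circles), TETi76 with ascorbate minus ascorbate in K01 (squares) and TETi76 minus DMSO in SIGM5 (triangles). Filled symbols have an adjusted p under 0.05. The K01 symbols reach -1.65 for MCM7, and most SIGM5 symbols lie near 0.

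The 2 TETi76 comparisons in K01 share no library, but both use the same spread, and so the same SE, for each gene. Their lists of called genes are therefore not independent. The 2 comparisons had 21 called genes in common, which is 91.3% of the first list and 75% of the second. The overlap over all genes was not counted, so these shares cannot be called particular to the 40. The shared genes were CDC6, CDT1, MCM2 to MCM7, CDC45, GINS2, POLA1, PRIM1, POLD1, PCNA, RFC4, FEN1, LIG1, RRM1, RRM2, TYMS and TK1. RFC1 and RFC2 were called in the comparison without ascorbate and not in the other, and ORC1, MCM8, MCM10, GINS1, POLE, RFC3 and RPA3 the other way round. The remaining 10, which were called in neither, were ORC6, GMNN, GINS3, GINS4, POLA2, PRIM2, POLE2, RFC5, RPA1 and RPA2. PRIM2 has near-identical partial copies elsewhere in the genome, so its count is uncertain. The summed FPKM of the 40 genes was 1536 ± 8.003 with TETi76 and ascorbate and 1613 ± 15.4 with TETi76, against 2395 ± 28.4 with ascorbate, 2162 ± 9.90 in K18 and 2413 ± 19.8 in K01 with DMSO (SD, n = 2 each). The FPKM of all entries also differed, at 774192 to 825486 in the K01 libraries with TETi76 and 840154 to 868586 in those without it. In K18 that total was 759929 and 755857. The entries MIR6723 and MIR4461 made up 29.6 to 36.4% of these totals.

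Some markers of the erythroid lineage and of other cell types moved with TETi76. The 14 erythroid markers summed to 7310 to 8803 FPKM in the 4 K01 libraries with TETi76, against 8974 to 10863 FPKM in the 4 without it. KLF1, an erythroid transcription factor, stood at 14.4 to 34.96 FPKM with TETi76 against 73.0 to 77.9 FPKM without it. Other erythroid markers did not separate in this way. HBG2 stood at 1607 to 1936 FPKM with TETi76 against 1553 to 2053 FPKM without it in K01. TFRC was higher with TETi76 (103.7 and 99.3 FPKM) than with DMSO (88.8 and 85.8 FPKM). With ascorbate in both arms TFRC was lower with TETi76 (69.2 and 69.7 FPKM against 117 and 112 FPKM). Of 13 myeloid markers 3 to 4 reached 1 FPKM in both libraries of a K01 group, and their sum was 62.8 to 76.35 FPKM with TETi76 against 47.1 to 55.6 FPKM without it. SPI1, the myeloid factor PU.1, stood at 20.02 to 23.7 FPKM with TETi76 against 6.23 to 9.49 FPKM without it in K01. LYZ, the largest part of the myeloid sum, did not separate, at 27.3 to 35.4 FPKM with TETi76 against 28.04 to 35.1 FPKM without it. CD33 overlapped too. MPO, ITGAM and CD14 were higher in every K01 library with TETi76 than in any without it, but at no more than 1.18 FPKM. Of 10 stromal and epithelial markers 4 to 5 reached 1 FPKM in both libraries of a K562 group. Their sum reached 1066 to 1159 FPKM in the 4 K01 libraries with TETi76, against 459 to 546 FPKM in the 4 without it and 400 to 413 FPKM in K18. KRT8, KRT18, KRT19 and EPCAM, which K562 cells express, made up nearly all of this sum, and KRT8 stood at 517 to 561 FPKM with TETi76 against 186 to 222 FPKM without it in K01. CDH5 was at 0 in all 10 K562 libraries, and COL1A1, COL1A2, COL3A1 and PDGFRB were under 1 FPKM. Of the 8 lymphoid markers, CD2 and MS4A1 were at 0 in all 10, and the sum of 19.996 to 41.0 FPKM with TETi76, against 12.3 to 21.5 FPKM without it in K01, was mostly CD3D. Their part in the fall of the replication genes was not tested.

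The start regions were searched for letters that E2F and other cell-cycle factors are known to bind, and shares are given with no test. RefSeq windows from 250 bases before to 50 bases after the transcription start (GRCh38.p14) were used for 35 of the 40 genes, all but MCM4, MCM5, GINS4, RPA2 and RPA3. The words TTTCGCGC, TTTGGCGC and TTTCCCGC were searched on both strands, and so were CCAAT, the NF-Y word, and TTTGAA, which is found in many promoters of mitotic genes. At least 1 E2F-type word was present in 19 of 35 genes (54.3%), against 717 of 15843 protein-coding genes (4.53%). It was present in 11 of the 19 genes with a window that fell in both K01 comparisons (57.9%) and in 4 of the 8 that fell in neither (50%). CCAAT was present in 62.9% of the 35 genes and in 42.1% of all protein-coding genes, and TTTGAA in 2.86% against 15.8%. A word is a description of the letters and not evidence of a bound site.

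The windows of 6 genes among the 10 with the largest fall are printed here to show where the searched words stand. The 3 E2F-type words do not cover every known form of an E2F site, and the windows were chosen after the values were seen. Capitals mark the E2F-type words and CCAAT on either strand. MCM7 has 3 windows and the printed one holds most E2F-type words. It lies at chr7:100101348-100101647 on the minus strand, with TTTCGCGC 9 bases before the start, sharing a base with a CCAAT, and TTTCCCGC on the other strand 187 bases before the start. MCM2, at chr3:127598161-127598460 on the plus strand, has TTTCGCGC on both strands, overlapping, from 2 bases after the start. MCM6, at chr2:135876394-135876693 on the minus strand, has TTTGGCGC overlapping with TTTCGCGC of the other strand at 2 places, the first 152 and the second 90 bases before the start. TYMS, at chr18:657403-657702 on the plus strand, has TTTCCCGC on the other strand 39 bases before the start. CDC45, at chr22:19479670-19479969 on the plus strand, has 4 CCAAT words and none of the 3 E2F-type words searched, and POLD1, at chr19:50384073-50384372 on the plus strand, has neither.
MCM7: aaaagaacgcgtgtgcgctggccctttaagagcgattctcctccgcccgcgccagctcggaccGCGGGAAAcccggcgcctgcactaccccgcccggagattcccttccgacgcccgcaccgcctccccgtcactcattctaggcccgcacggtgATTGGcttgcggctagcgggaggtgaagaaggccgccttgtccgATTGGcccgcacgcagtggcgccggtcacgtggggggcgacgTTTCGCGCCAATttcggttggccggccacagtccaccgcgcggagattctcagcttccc
MCM2: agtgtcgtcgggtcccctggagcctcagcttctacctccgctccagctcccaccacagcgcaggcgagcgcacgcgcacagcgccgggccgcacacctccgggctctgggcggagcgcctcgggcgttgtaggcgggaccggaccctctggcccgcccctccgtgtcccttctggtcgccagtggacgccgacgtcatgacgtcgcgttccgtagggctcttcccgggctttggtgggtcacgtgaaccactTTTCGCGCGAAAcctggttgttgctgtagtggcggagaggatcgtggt
MCM6: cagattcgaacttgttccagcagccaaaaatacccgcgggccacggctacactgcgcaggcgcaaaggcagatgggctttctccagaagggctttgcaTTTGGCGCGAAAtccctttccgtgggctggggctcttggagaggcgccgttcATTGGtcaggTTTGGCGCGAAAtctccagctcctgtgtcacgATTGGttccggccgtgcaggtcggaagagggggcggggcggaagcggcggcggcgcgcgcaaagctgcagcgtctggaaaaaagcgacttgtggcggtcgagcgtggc
TYMS: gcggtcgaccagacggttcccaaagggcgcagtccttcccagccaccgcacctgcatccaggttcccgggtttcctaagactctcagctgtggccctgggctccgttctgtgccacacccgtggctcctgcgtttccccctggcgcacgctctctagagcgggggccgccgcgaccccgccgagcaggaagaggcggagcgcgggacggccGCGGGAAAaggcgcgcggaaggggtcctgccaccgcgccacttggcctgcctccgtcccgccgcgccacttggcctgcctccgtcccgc
CDC45: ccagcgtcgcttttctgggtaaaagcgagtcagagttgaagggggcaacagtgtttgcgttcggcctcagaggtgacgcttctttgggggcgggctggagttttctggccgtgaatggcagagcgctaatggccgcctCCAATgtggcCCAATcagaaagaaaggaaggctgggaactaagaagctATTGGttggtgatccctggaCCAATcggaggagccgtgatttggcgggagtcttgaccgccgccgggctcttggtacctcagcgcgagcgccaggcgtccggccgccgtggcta
POLD1: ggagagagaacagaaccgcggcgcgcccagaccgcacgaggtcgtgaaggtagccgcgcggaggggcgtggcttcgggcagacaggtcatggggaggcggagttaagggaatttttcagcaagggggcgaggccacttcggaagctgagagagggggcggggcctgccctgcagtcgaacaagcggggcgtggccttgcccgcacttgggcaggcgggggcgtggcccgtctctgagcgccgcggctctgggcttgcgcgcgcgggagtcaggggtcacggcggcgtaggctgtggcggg

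Among the licensing factors, the loaders CDT1 and CDC6 fell with and without ascorbate, and the inhibitor GMNN was called in neither comparison. CDT1, which brings MCM2-7 to the origin, stood at 50.7 and 54.5 FPKM with TETi76 against 89.6 and 79.8 FPKM with DMSO, and at 52.4 and 41.4 FPKM with TETi76 and ascorbate against 72.4 and 76.3 FPKM with ascorbate. All 4 libraries with TETi76 lay under all 4 without it, so the groups did not overlap (log2 changes -0.68 ± 0.11, adjusted p = 0.003, and -0.66 ± 0.11, adjusted p = 0.00244). CDC6, the loading ATPase, averaged 33.8 ± 0.769 FPKM with TETi76 and 41.9 ± 3.77 FPKM with DMSO (SD, n = 2 each). Its log2 change was -0.30 ± 0.08 without ascorbate (adjusted p = 0.0299) and -0.29 ± 0.08 with it (adjusted p = 0.0284), and these calls were not stable. The first was lost without DMSO replicate 2 and without either TETi76 library (adjusted p up to 0.190), and the second on leaving out any 1 of the 4 libraries (up to 0.207). ORC1, a subunit of the origin recognition complex, was called with ascorbate in both arms (log2 change -0.35, SE 0.10, adjusted p = 0.0251) and had a log2 change of -0.25 without it (adjusted p = 0.0939). The call was lost without ascorbate replicate 2 and without TETi76 and ascorbate replicate 1 (adjusted p up to 0.154). ORC6, another subunit of that complex, had log2 changes of 0.16 without ascorbate and 0.13 with it, neither called. GMNN, which binds CDT1 and blocks relicensing, had log2 changes of 0.07 and -0.11, with 95% intervals from -0.12 to 0.26 and from -0.29 to 0.08.

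All 6 subunits of the MCM2-7 helicase fell under TETi76, with and without ascorbate, but not to the same extent. MCM7 stood at 71.9 and 73.6 FPKM with TETi76 against 216 and 214 FPKM with DMSO, and at 66.9 and 68.3 FPKM with TETi76 and ascorbate against 222 and 207 FPKM with ascorbate. The 4 libraries with TETi76 lay close together and under 50% of every library without it. Its log2 change was -1.55 ± 0.06 without ascorbate (adjusted p = 4.06e-07) and -1.65 ± 0.06 with it (adjusted p = 3.36e-07). MCM2, a subunit that also carries histones, stood at 42.8 and 41.9 FPKM with TETi76 against 71.5 and 68.1 FPKM with DMSO, and at 32.7 and 33.1 FPKM with TETi76 and ascorbate against 65.2 and 65.9 FPKM with ascorbate. The groups did not overlap, and the 2 libraries with both compounds were the lowest of all (log2 changes -0.71 ± 0.06 and -0.97 ± 0.06). MCM6 stood at 43.6 and 44.1 FPKM with TETi76 against 71.6 and 69.2 FPKM with DMSO, and at 40.1 and 40.6 FPKM with TETi76 and ascorbate against 68.2 and 70.5 FPKM with ascorbate. All libraries with TETi76 were below all without it (log2 changes -0.67 ± 0.07 and -0.77 ± 0.07). MCM5 (-0.56 ± 0.08 and -0.43 ± 0.08) and MCM4 (-0.47 ± 0.06 and -0.68 ± 0.06) fell by a middle amount, and MCM3 fell least (-0.28 ± 0.08 and -0.28 ± 0.08). With ascorbate in both arms the MCM5 call was not kept in all 11 alternatives. The MCM3 call was lost without DMSO replicate 1 or TETi76 replicate 1 in the first comparison (adjusted p up to 0.198), and without either ascorbate library or TETi76 and ascorbate replicate 2 in the second (up to 0.455).

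As these subunits form a ring in equal numbers, their transcripts can be set side by side per length. MCM7 made up 20.04 ± 0.0383% of the summed FPKM of MCM2 to MCM7 with TETi76 and ascorbate and 19.9 ± 0.0619% with TETi76, against 34.6 ± 1.13% with ascorbate, 37.6 ± 0.510% in K18 and 33.8 ± 0.369% in K01 with DMSO (SD, n = 2 each). MCM7 was the most abundant of the 6 in every library without TETi76 and ranked 2 or 3 in those with it, where MCM3 was the highest in 3 libraries and MCM5 in TETi76 and ascorbate replicate 2. The opposite-strand gene AP4M1 covers 392 of the 4386 exon bases of MCM7 in GENCODE v29, and its own log2 change in K01 was 0.04 (adjusted p = 0.909). The strand setting of the counting is not given in the sources used here, so reads over such shared bases cannot be assigned.

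**Figure D2:**
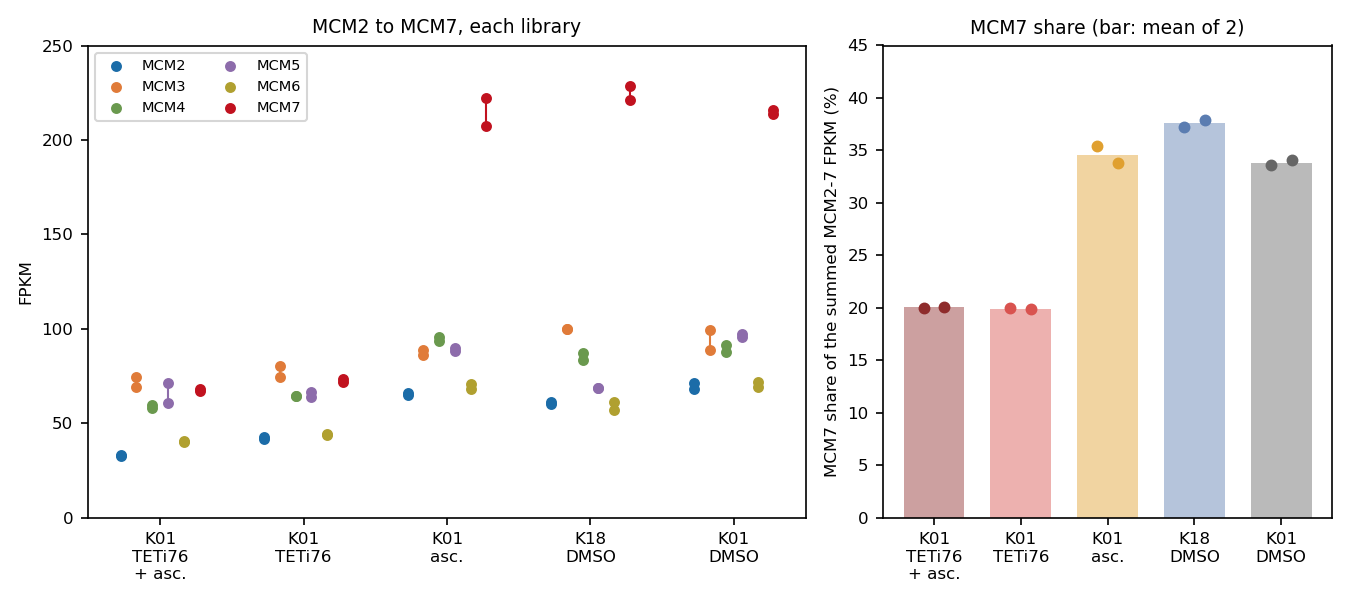
Left, FPKM of MCM2 to MCM7 in each of the 10 K562 libraries by group, each point 1 library and a line joining the 2 of a group. Right, the share of MCM7 in the summed FPKM of the 6 genes, with bars at the mean of 2 libraries. MCM7 stands between 66.9 and 73.6 FPKM with TETi76 and between 207.3 and 228.6 FPKM in K01 and K18 without it.

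The relatives outside the ring, MCM8 and MCM10, were called with ascorbate in both arms and not without it. MCM8, which acts in recombination repair, averaged 12.99 ± 2.68 FPKM with TETi76 and ascorbate and 18.98 ± 0.102 FPKM with ascorbate (log2 change -0.53, SE 0.13, adjusted p = 0.0152), a call that was lost without TETi76 and ascorbate replicate 1 and without either ascorbate library. MCM10, which helps to activate the loaded helicase, averaged 13.9 ± 0.679 FPKM against 20.1 ± 1.498 FPKM (log2 change -0.50, SE 0.11, adjusted p = 0.00662). Without ascorbate their log2 changes were -0.22 ± 0.13 and -0.07 ± 0.11, neither called. For MCM10 the 2 TETi76 effects differed by -0.43 on the log2 scale (SE 0.15), which did not pass the adjustment over all genes (unadjusted p = 0.0163, adjusted p = 0.248).

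CDC45, the factor that turns the loaded MCM ring into a working helicase, had the second largest fall after MCM7 in the comparison without ascorbate. It stood at 57.9 and 65.0 FPKM with TETi76 against 159 and 156 FPKM with DMSO, and at 62.1 and 61.2 FPKM with TETi76 and ascorbate against 138 and 127 FPKM with ascorbate. The groups with and without TETi76 were far apart. The libraries with ascorbate alone lay below those with DMSO, a difference that was not called. The log2 change was -1.35 ± 0.08 without ascorbate (adjusted p = 9.85e-06) and -1.09 ± 0.08 with it (adjusted p = 2.43e-05). Of the 4 GINS subunits, the partner complex of CDC45, GINS2 was called in both comparisons (-0.54 ± 0.08 and -0.69 ± 0.08). GINS1 averaged 9.35 ± 0.815 FPKM with TETi76 and ascorbate and 13.02 ± 0.495 FPKM with ascorbate (log2 change -0.44, SE 0.14, adjusted p = 0.0358). This call was lost on leaving out any 1 of the 4 libraries, with an adjusted p of at most 0.153 over the alternatives. GINS3 and GINS4 were called in neither comparison, and their libraries with TETi76 and ascorbate overlapped those with ascorbate.

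Among polymerases and primase, the catalytic subunits of polymerases alpha and delta fell most. POLD1, the catalytic subunit of the lagging-strand polymerase delta, stood at 31.4 and 30.4 FPKM with TETi76 against 72.3 and 69.5 FPKM with DMSO, and at 27.0 and 22.4 FPKM with TETi76 and ascorbate against 70.4 and 67.7 FPKM with ascorbate. Every library with TETi76 was under 50% of every library without it (log2 changes -1.17 ± 0.09, adjusted p = 3.2e-05, and -1.45 ± 0.09, adjusted p = 7.55e-06). POLA1, the catalytic subunit of polymerase alpha, was a low transcript at 9.57 and 9.44 FPKM with TETi76 against 18.5 and 20.3 FPKM with DMSO, and at 7.40 and 8.72 FPKM with TETi76 and ascorbate against 15.1 and 14.9 FPKM with ascorbate. The groups did not overlap, and ascorbate alone lay between the TETi76 and the DMSO libraries (log2 changes -0.95 ± 0.11 and -0.82 ± 0.11). PRIM1, the catalytic primase subunit, stood at 41.1 and 39.5 FPKM with TETi76 against 76.0 and 76.3 FPKM with DMSO, and at 43.9 and 41.0 FPKM with TETi76 and ascorbate against 61.0 and 65.0 FPKM with ascorbate. It too had its lowest values with TETi76, its highest with DMSO and ascorbate alone between them (log2 changes -0.90 ± 0.07 and -0.56 ± 0.07). The difference between ascorbate alone and DMSO was not called for POLA1 or PRIM1. POLE, the catalytic subunit of the leading-strand polymerase epsilon, had a smaller log2 change, of -0.37 ± 0.08 with ascorbate (adjusted p = 0.00932) and of -0.25 ± 0.08 without it (adjusted p = 0.0634, not called). The POLE call with ascorbate was not kept in all 11 alternatives. The accessory subunits POLA2, PRIM2 and POLE2 were called in neither comparison, and PRIM2 had log2 changes of -0.02 and 0.01 with intervals as wide as -0.45 to 0.41.

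**Figure D3:**
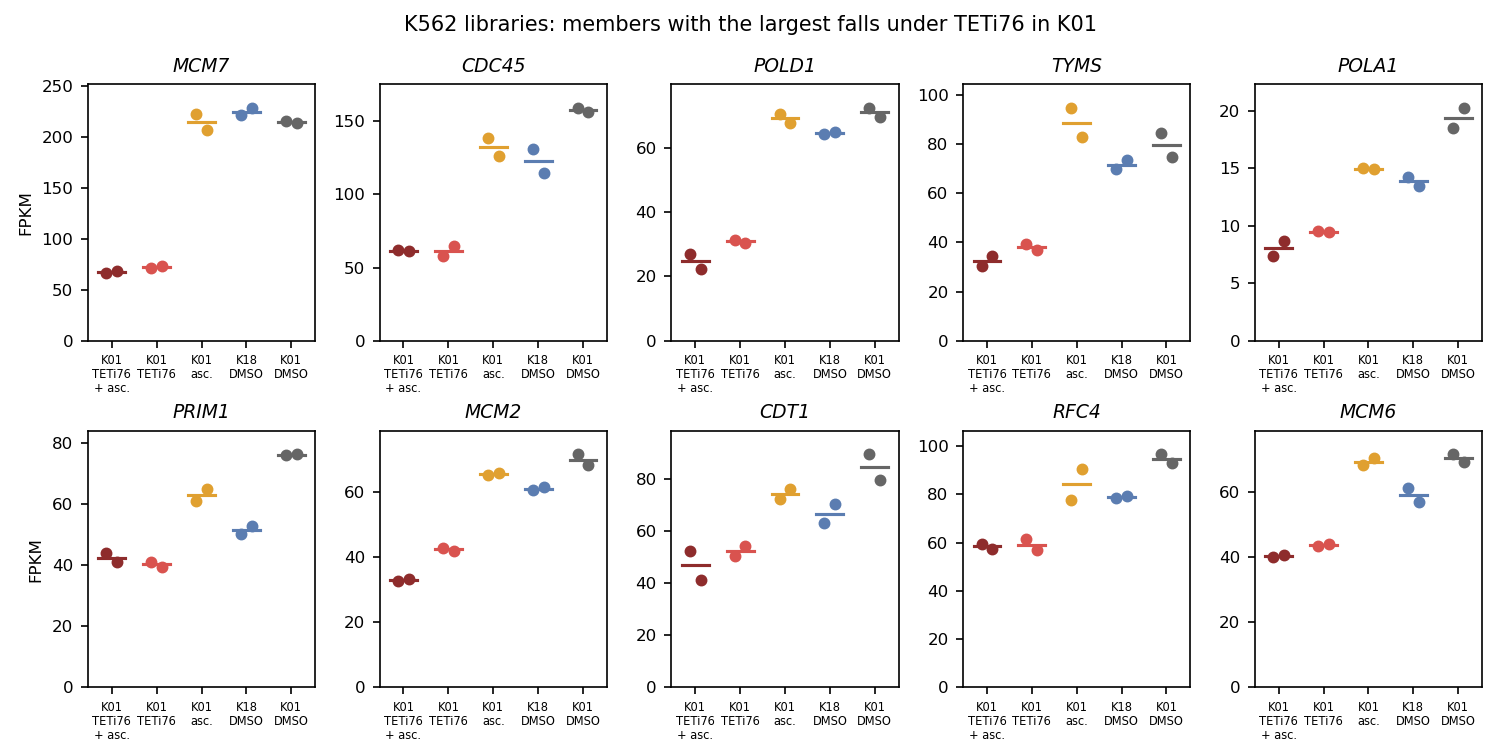
FPKM in the 10 K562 libraries of the 10 genes with the largest called log2 changes for TETi76 minus DMSO in K01. Each point is 1 library and each line the mean of 2. In all 10 panels the TETi76 libraries lie below the ascorbate, K18 and K01 DMSO libraries, and CDC45, POLA1, PRIM1 and MCM6 are also called lower in K18 than in K01 with DMSO.

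The sliding clamp and its loader fell in part. PCNA, the clamp that holds polymerases on DNA and the second most abundant of the 40 genes in K01 with DMSO, averaged 115 ± 1.77 FPKM with TETi76 and 171 ± 8.76 FPKM with DMSO (log2 change -0.57, SE 0.07, adjusted p = 0.00065). With ascorbate in both arms it averaged 100.3 ± 6.49 FPKM with TETi76 and ascorbate and 163 ± 5.04 FPKM with ascorbate (log2 change -0.70, SE 0.07, adjusted p = 0.000131). RFC4, a subunit of the clamp loader, stood at 61.3 and 56.8 FPKM with TETi76 against 96.5 and 93.0 FPKM with DMSO, and at 59.3 and 57.5 FPKM with TETi76 and ascorbate against 77.6 and 90.6 FPKM with ascorbate. Its 4 libraries with TETi76 lay within 5 FPKM of each other and below all others (log2 changes -0.67 ± 0.08 and -0.51 ± 0.08). RFC1, the large loader subunit, was called without ascorbate (log2 change -0.33, SE 0.09, adjusted p = 0.0334) and stood at -0.04 with it. That call was lost without DMSO replicate 2 and without either TETi76 library (adjusted p up to 0.196). RFC3, another loader subunit, was called with ascorbate (log2 change -0.45, SE 0.11, adjusted p = 0.0136) and stood at -0.21 without it, a call lost without ascorbate replicate 2 and without TETi76 and ascorbate replicate 1 (up to 0.0838). RFC2 was called without ascorbate at an adjusted p of 0.0427 and lost that call on leaving out any 1 of the 4 libraries (up to 0.184 over the alternatives). RFC5 had log2 changes of -0.33 and -0.37, neither called.

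FEN1 and LIG1, which trim and seal lagging-strand fragments, fell in both comparisons, and RPA1 and RPA2 were called in neither. FEN1 averaged 55.7 ± 1.91 FPKM with TETi76 and ascorbate and 92.5 ± 2.40 FPKM with ascorbate (log2 change -0.72, SE 0.07, adjusted p = 8.29e-05), with a smaller change without ascorbate (log2 change -0.34, SE 0.07, adjusted p = 0.00672), which was lost without TETi76 replicate 1 (adjusted p = 0.0518). LIG1, the replicative ligase, averaged 17.4 ± 2.06 FPKM against 33.9 ± 1.26 FPKM (log2 change -0.93, SE 0.10, adjusted p = 0.000187), and without ascorbate changed by -0.58 ± 0.10. The neighbours TMEM258 and FADS2 cover 166 and 49 of the 2478 exon bases of FEN1, and FADS2 fell too in K01 (log2 change -0.90, adjusted p = 0.00181). RPA1 and RPA2, subunits of the single-strand binding complex, had log2 changes between -0.10 and -0.03 in these comparisons, none called. The third subunit, RPA3, averaged 15.0 ± 3.56 FPKM with TETi76 and ascorbate and 26.3 ± 4.44 FPKM with ascorbate (log2 change -0.78, SE 0.16, adjusted p = 0.00633).

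All 4 genes of nucleotide supply fell. TYMS, which makes thymidylate, stood at 39.3 and 36.8 FPKM with TETi76 against 84.4 and 74.8 FPKM with DMSO, and at 30.5 and 34.6 FPKM with TETi76 and ascorbate against 94.6 and 82.6 FPKM with ascorbate. The groups lay far apart (log2 changes -1.04 ± 0.10, adjusted p = 0.000107, and -1.42 ± 0.10, adjusted p = 1.27e-05). ENOSF1 on the opposite strand covers 967 of the 2470 exon bases of TYMS and fell by itself (log2 changes -0.72 and -0.97), so that reads of the 2 genes cannot be fully told apart. RRM2, the S-phase subunit of ribonucleotide reductase, averaged 37.6 ± 2.58 FPKM with TETi76 and ascorbate and 65.2 ± 3.81 FPKM with ascorbate (log2 change -0.78, SE 0.08, adjusted p = 0.000149), and changed by -0.51 ± 0.08 without ascorbate. RRM1, the large subunit of that enzyme, fell by similar amounts in both comparisons (-0.41 ± 0.07 and -0.39 ± 0.07). TK1, the thymidine kinase of cycling cells, changed by -0.96 ± 0.11 with ascorbate and by -0.55 ± 0.11 without it, where the call was lost without TETi76 replicate 1 (adjusted p = 0.0540).

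Ascorbate alone gave no call among the replication genes. limma called 0 of the 40 between ascorbate and DMSO, and 0.479% of all genes, 0.168% higher and 0.311% lower. An unadjusted p under 0.05 was reached by 5 of the 40 and by 1497 of all 12526 genes, which are similar shares. The median log2 change of the 40 was 0.00. The 5 were GMNN (0.27 ± 0.08) and RRM2 (0.19 ± 0.08) above 0, and CDC45 (-0.25 ± 0.08), POLA1 (-0.35 ± 0.11) and PRIM1 (-0.27 ± 0.07) below 0, with adjusted p from 0.187 to 0.4. The 95% interval of MCM7 ran from -0.13 to 0.12.

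Ascorbate added to TETi76 changed 1 gene of the 40, with 0.719% of all genes called, 0.24% higher and 0.479% lower. MCM2 was lower with both compounds than with TETi76 alone, at 32.7 and 33.1 FPKM against 42.8 and 41.9 FPKM (log2 change -0.35, SE 0.06, adjusted p = 0.0497). The libraries did not overlap, but the call was lost in 9 of 11 alternatives, among them leaving out any 1 of the 4 libraries, with an adjusted p of up to 0.302. A further 8 genes of the 40 had an unadjusted p under 0.05, against 1829 of all 12526 genes. Whether the TETi76 effect depended on ascorbate was tested as an interaction. limma called 0 of the 40 there, and 9 had an unadjusted p under 0.05, against 1707 of all 12526 genes. Over all genes 0.631% were called, 35 higher (0.279%) and 44 lower (0.351%), or 38 higher and 26 lower after quantile normalization. The median of the interaction was -0.09 over the 40 genes. The smallest p belonged to FEN1 (interaction -0.38 ± 0.10, adjusted p = 0.145) and PRIM1 (interaction 0.34 ± 0.10, adjusted p = 0.194). A p over the threshold does not show that the 2 effects are equal, and for MCM7 the 95% interval of the difference ran from -0.28 to 0.08.

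The TET2-/- derivative K18 had lower transcripts of 8 of the 40 genes than K01, both in DMSO, and higher transcripts of 0. limma called 15.1% of all genes here, 8.21% lower and 6.86% higher, whereas 20% of the 40 were called lower. The median log2 change was -0.14 over the 40 and 0.00 over all genes. PRIM1 stood at 50.3 and 52.8 FPKM in K18 against 76.0 and 76.3 FPKM in K01 (log2 change -0.55, SE 0.07, adjusted p = 0.00103). MCM5 stood at 68.5 and 68.8 FPKM in K18 against 97.2 and 95.5 FPKM in K01 (log2 change -0.48, SE 0.08, adjusted p = 0.00337). POLA1 stood at 14.3 and 13.5 FPKM in K18 against 18.5 and 20.3 FPKM in K01 (log2 change -0.45, SE 0.11, adjusted p = 0.0239). In each of these genes both K18 libraries lay below both K01 libraries. CDC45 (-0.36 ± 0.08), PCNA (-0.33 ± 0.07), RRM1 (-0.27 ± 0.07), FEN1 (-0.26 ± 0.07) and MCM6 (-0.25 ± 0.07) were the others called.

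MCM7, the gene with the largest fall under TETi76, was not lower in K18. It stood at 221 and 229 FPKM in K18 against 216 and 214 FPKM in K01 (log2 change 0.07, 95% interval -0.06 to 0.19, adjusted p = 0.494). POLD1 (-0.14 ± 0.09) and TYMS (-0.15 ± 0.10) were not called either. The K18 comparison shares the K01 DMSO libraries with the TETi76 comparison, so their lists are not independent. MCM5 and PRIM1 were called in all 11 alternatives, and each of the other 6 lost its call on leaving out 1 of at least 2 libraries. The count of 8 fell to 4 without K18 replicate 1, 2 without K18 replicate 2, 3 without K01 DMSO replicate 1 and 2 without K01 DMSO replicate 2. Erythroid markers summed to 4907 to 5111 FPKM in K18, against 8974 to 10329 FPKM in K01 with DMSO, and their part in these differences was not tested.

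In SIGM5, at the same dose of TETi76, few replication genes passed the test. edgeR called 2 of the 40 lower and 0 higher, against 4.13% of all 11340 genes called, 1.54% lower and 2.58% higher. An unadjusted p under 0.05 was reached by 4 of the 40, a smaller share than the 1893 of all 11340 genes. The median log2 change was -0.11 over the 40 and 0.00 over all genes, with 34 of the 40 and 5649 of the 11340 below 0. MCM7 stood at 369.7 and 401 CPM with TETi76 against 561 and 502 CPM with DMSO, with no overlap (log2 change -0.47, SE 0.10, 95% interval -0.67 to -0.26, adjusted p = 0.00776). RPA3 stood at 36.0 and 32.4 CPM with TETi76 against 43.2 and 49.6 CPM with DMSO, also with no overlap (log2 change -0.44, SE 0.13), and its adjusted p lay just under the threshold. TYMS had a larger but less certain change, at 24.3 and 35.8 CPM with TETi76 against 42.8 and 46.3 CPM with DMSO (log2 change -0.57, SE 0.16, adjusted p = 0.0548). LIG1 was the other gene with an unadjusted p under 0.05 (log2 change -0.33, SE 0.11, adjusted p = 0.11).

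**Figure D4:**
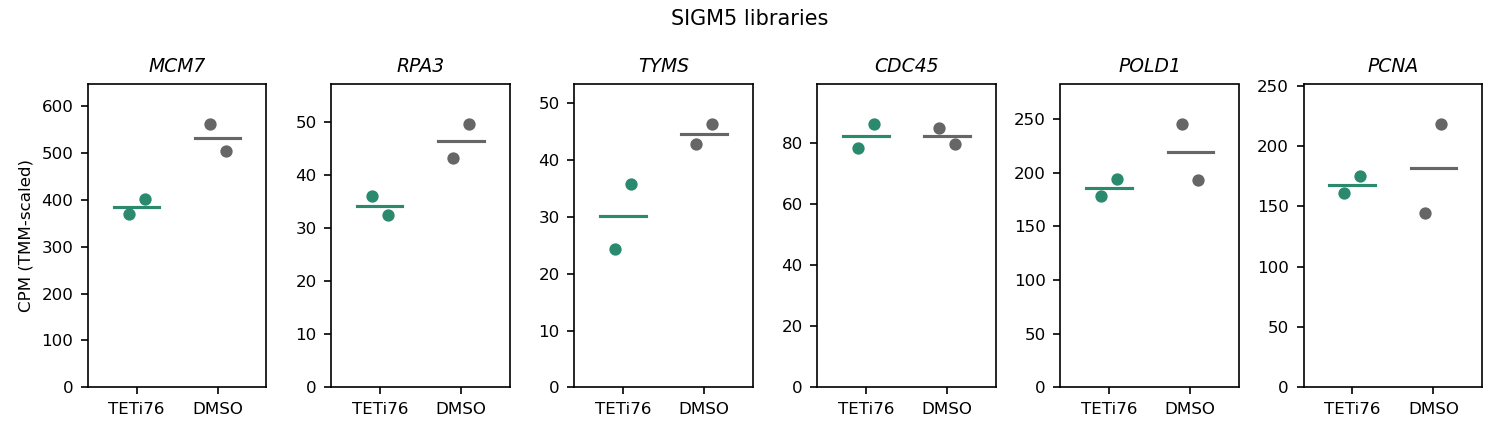
TMM-scaled CPM in the 4 SIGM5 libraries of MCM7, RPA3, TYMS, CDC45, POLD1 and PCNA, each point 1 library and each line the mean of 2. MCM7, RPA3 and TYMS are lower in both TETi76 libraries than in both DMSO libraries, while CDC45, POLD1 and PCNA overlap.

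The SIGM5 calls depended on which libraries were used. The count of genes among the 40 was 4 without DMSO replicate 1, 7 without DMSO replicate 2, 0 without TETi76 replicate 1 and 1 without TETi76 replicate 2, and that over all genes was 866, 1206, 110 and 183 in the same order, against 468 with all 4 libraries. MCM7 lost its call without either TETi76 library (adjusted p up to 0.381), and RPA3 without either of these or DMSO replicate 2 (up to 0.458). DESeq2 called MCM7 (adjusted p = 0.00139) and not RPA3 (adjusted p = 0.0739), and 0 of the 40 higher. The opposite-strand neighbour AP4M1 of MCM7 had a log2 change of -0.61 in SIGM5 (adjusted p = 0.058).

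The difference between the TETi76 effects of the lines was tested directly, on K01 minus SIGM5. Of the 40 genes 12 had a lower log2 change in K01 and 0 a higher one, against 12% of the 9740 genes tested in both that were called and 7.09% called lower and 4.90% higher. CDC45 differed most, with a log2 change of -1.35 in K01 and 0.00 in SIGM5 (difference -1.35 ± 0.14, adjusted p = 3.05e-08). In SIGM5 it stood at 78.4 and 86.3 CPM with TETi76 against 84.9 and 79.6 CPM with DMSO, which overlapped. MCM7 differed by -1.08 ± 0.11 (adjusted p = 4.95e-08) and was called lower in both lines. POLD1 stood at 179 and 194 CPM with TETi76 against 245 and 193 CPM with DMSO in SIGM5, which overlapped, and differed by -0.94 ± 0.15 (adjusted p = 4.93e-05). PRIM1, at 53.0 and 48.2 CPM with TETi76 against 49.9 and 60.7 CPM with DMSO in SIGM5, overlapped too and differed by -0.77 ± 0.14 (adjusted p = 0.000364). POLA1, at 72.3 and 71.7 CPM with TETi76 against 85.3 and 79.6 CPM with DMSO in SIGM5, did not overlap and differed by -0.76 ± 0.16 (adjusted p = 0.00156). The others were CDC6 (-0.47), MCM2 (-0.58), MCM4 (-0.40), MCM6 (-0.64), RFC4 (-0.56), RRM1 (-0.37) and RRM2 (-0.61). RRM1 kept its call in only 2 of 11 alternatives. CDC6 and MCM4 lost theirs without either SIGM5 TETi76 library or K01 DMSO replicate 2, CDC6 also without K01 TETi76 replicate 2, and RFC4 without SIGM5 TETi76 replicate 2 (adjusted p up to 0.164). RPA3 had log2 changes of -0.43 in K01 and -0.44 in SIGM5, and the 95% interval of their difference ran from -0.42 to 0.43. The effects come from separate fits on FPKM in K01 and counts in SIGM5, and the part of the scale in these differences was not tested.

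Other genes of the pathway were also called in K01. Of 44 partners in licensing, firing and fork work, 11 fell and 2 rose under TETi76, and with ascorbate in both arms 17 fell and 3 rose. The shares that fell were 25% and 38.6%, against 13.7% and 17.8% of all genes. They include DUT, which removes dUTP (log2 changes -0.81 without ascorbate and -1.24 with it), POLD2, a partner of POLD1 (-0.74 and -0.95), and CHAF1B, a histone chaperone at the fork (-0.61 and -0.58). Of 30 E2F and G1/S regulators 13 fell and 2 rose, or 12 and 1 with ascorbate, so that 43.3% and 40% fell. CDKN1A, the CDK inhibitor p21, was the largest riser (log2 change 1.66, SE 0.11, adjusted p = 1.41e-05), and it rose more with ascorbate (2.59, interaction 0.92, adjusted p = 0.0471). That interaction was not called without TETi76 replicate 1 or ascorbate replicate 2, where limma called 0 of all genes. In SIGM5 it had a log2 change of 0.30 (adjusted p = 0.105). The factors E2F2 (-0.77 without ascorbate and -0.69 with it) and E2F5 (-0.53 and -0.96), the kinase CDK2 (-0.57 and -0.58) and the cyclins CCND2 (-0.57 and -0.78) and CCNA2 (-0.36 and -0.80) fell in both comparisons. CCND1, another cyclin, fell with ascorbate (-1.05) and had a log2 change of -0.53 without it, not called (adjusted p = 0.0738).

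Checkpoint and mitotic genes were called in both directions. Of 18 replication checkpoint genes 6 fell (33.3%) and 1 rose in each K01 comparison. RAD51AP1 (-0.62 without ascorbate and -0.55 with it) and EXO1 (-0.56 and -0.63), both of DNA repair, fell in both. FANCD2, also of DNA repair, fell without ascorbate (-0.69) and stood at -0.26 with it, not called. The checkpoint kinase ATR rose without ascorbate (0.49) and stood at 0.24 with it, not called, while HUS1, a part of the checkpoint clamp, rose with ascorbate (1.12) and stood at 0.30 without it, not called. Of 22 mitotic genes 4 fell (18.2%) and 3 rose without ascorbate, with a median of 0.05, near the 13.7% and 9.60% of all genes called lower and higher. With ascorbate 7 fell (31.8%) and 1 rose, with a median of -0.16, against 17.8% and 12.8% of all genes. CDC20, an activator of the anaphase complex, rose in both (0.72 and 0.46), whereas the topoisomerase TOP2A fell in both (-0.54 and -0.63). AURKA, a spindle kinase, rose without ascorbate (0.45) and stood at 0.26 with it, not called. NUF2, a kinetochore protein, fell without ascorbate (-0.42) and stood at -0.21 with it, not called. In K18 5 partners were lower and 0 higher, 4 G1/S regulators were lower and 2 higher, 1 checkpoint gene was lower and 1 higher, and 7 mitotic genes were lower and 0 higher, among them CDK1 (-0.68). The shares lower were 11.4% of partners, 13.3% of G1/S regulators, 5.56% of checkpoint genes and 31.8% of mitotic genes, against 8.21% of all genes, so that the first 3 lie near the share of all genes. SKP2, a ubiquitin ligase subunit, was the largest riser there (0.99). In SIGM5 edgeR called 0 of 44 partners, 0 of 29 G1/S regulators tested and 0 of 18 checkpoint genes, of which 4, 4 and 2 had an unadjusted p below 0.05. CCNB1 (log2 change -0.42, SE 0.10, adjusted p = 0.0223) was the only called gene of the 22 mitotic ones. Of these 22, 14 had an unadjusted p under 0.05, and the median of the 22 was -0.25. Over all 11340 genes in SIGM5, 1893 had an unadjusted p under 0.05.

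**Figure D5:**
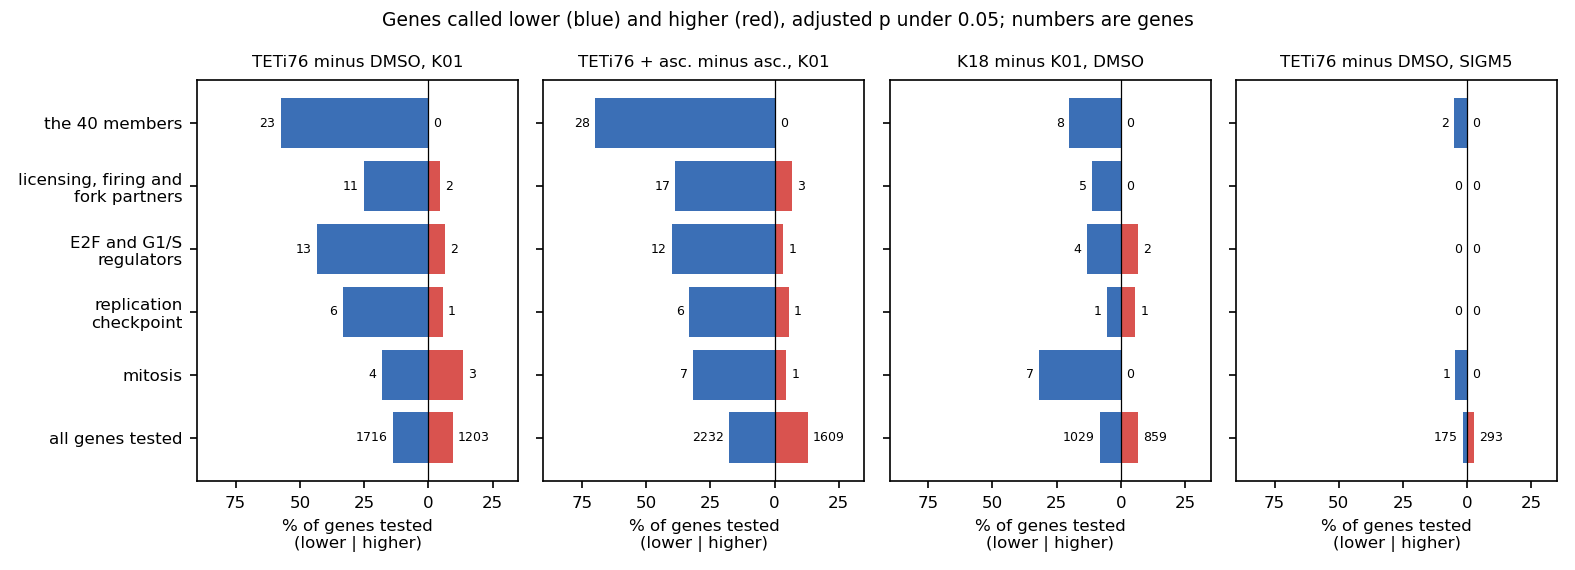
Share of the genes tested that were called lower (bars to the left) and higher (bars to the right) at an adjusted p under 0.05, for the 40 genes, 4 other lists and all genes, in 4 comparisons. Printed numbers are genes. In both K01 panels the bar of the 40 genes is the longest to the left and has no part to the right.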

How the data were processed

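Polyadenylated RNA of 14 libraries in 7 groups of 2 was sequenced. The deposited SIGM5 values are raw counts per gene, per the file's whole-number values, while the deposited K562 values are decimals whose unit the labels do not name. The values as deposited were read as FPKM from their own behaviour: they are not whole, their sums differ between libraries, very short genes stand extremely high, and 71.8% of 4746 low values were whole multiples, within 0.02 reads, of the lowest depth-corrected value of the same gene. Whether fragments or reads were counted is not given in the sources used here. STAR, edgeR 3.24.3, limma 3.38.3 and hg19 are named in the submitters' processing notes with no roles, and the strand setting and annotation are not given in the sources used here. The 40 genes, the other lists and the tests were chosen with earlier results of these data known.

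SIGM5 counts were tested with edgeR 4.0.16 (TMM, filterByExpr, robust quasi-likelihood, 11340 genes). For K562, limma 3.58.1 with a trended, robust spread was fitted to log2(FPKM + 1) of 12526 genes at 1 FPKM or more in at least 2 libraries, all 10 libraries sharing 1 spread, with 2305 short-RNA and 26 numeric entries left out. The difference between lines was tested over 9740 genes from both estimates and their standard errors, with Satterthwaite degrees of freedom. P-values are two-sided, were adjusted by Benjamini-Hochberg in R 4.3.3 and called under 0.05. DESeq2 1.42.0, other scalings, filters and pseudocounts, a replicate block and leaving out each library were the alternatives. The scripts were tested on simulated data.

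Values in every library are given for the 10 called genes with the largest log2 change under TETi76 in K01, those called in SIGM5, the 5 largest in the line difference and the 3 largest in each other comparison. Up to 4 called genes of each other list are named per comparison, and 1 that this rule selects is not reported here. Same-numbered libraries did not deviate together (r = -0.16 in SIGM5 and -0.02 to 0.05 in K562), so the numbers were not used to pair them. Promoter letters are RefSeq's, on GRCh38.p14, and gene overlaps are those of GENCODE v29, and no coordinate was moved between builds.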

Additional observations from a re-analysis of the deposited data

Results flagged for a closer look

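The TETi76 effect differed between K01 and SIGM5 for 12 of the 40 genes, by a test of the difference itself with Benjamini-Hochberg adjustment over 9740 genes. The difference, K01 minus SIGM5 on the log2 scale, was -0.47 for CDC6, -0.58 for MCM2, -0.40 for MCM4, -0.64 for MCM6, -1.08 for MCM7 and -1.35 for CDC45. It was -0.76 for POLA1, -0.77 for PRIM1, -0.94 for POLD1, -0.56 for RFC4, -0.37 for RRM1 and -0.61 for RRM2. In all 12 the log2 change was lower in K01. FPKM were used in K01 and counts in SIGM5, and the part of this in the differences was not tested.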

How the results depend on the processing

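None of the called genes among the 40 changed sign under the alternatives run. The count of called genes stayed within 1.5 times its value for TETi76 in K01 (17 to 24, against 23), TETi76 with ascorbate against ascorbate (22 to 29, against 28) and the line difference (8 to 15, against 12), and was 0 throughout for ascorbate alone and for the interaction. For TETi76 in SIGM5 (2) it was 1 with a filter of 1 CPM, 1 with DESeq2, 4 with a crossed replicate block chosen after seeing the data, and 0 to 7 on leaving out 1 library. For TETi76 with ascorbate against TETi76 (1) it was 0 with no filter on low values, median-ratio scaling, quantile normalization, the replicate block, only the groups compared, and 0 to 0 on leaving out 1 library. For K18 against K01 (8) it was 3 with quantile normalization and 2 to 4 on leaving out 1 library. The cause was not tested. With the replicate block the counts were 2 in SIGM5, 24 and 28 in the TETi76 comparisons of K01, 7 in K18 and 12 in the line difference.

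Over all genes, leaving out 1 library gave 1663 to 1779 calls for TETi76 in K01 (2919 with all libraries), 783 to 967 in K18 (1888) and 110 to 1206 in SIGM5 (468). SIGM5 gave 738 with no filter on low counts. A library left out leaves 1 in its group, which is then assumed to vary like the others. The number of libraries, 2 a group, and the few reads of the K562 libraries limit the precision for low genes.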
